A study of Gallus gallus with 27 samples.

Results

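CF4 is a chicken (Gallus gallus) fibroblast line that became immortal spontaneously, without genetic modification per the series title, and that the series lists beside its suspension lines as the attached form. It was compared with CEF4, primary embryonic fibroblasts, both labelled with the breed Israeli Baladi. The comparison holds 6 of the 27 libraries of the series, 3 of CF4 and 3 of CEF4, chosen by their sample titles. Per the labels, cells counted as immortal once morphology and doubling time were stable after at least 120 population doublings. Also per the labels, the primary cells were plated at 39 °C in DMEM with 10% serum. For CF4 the labels give 10% serum too, and no culture temperature. The labels do not say whether CF4 was derived from the CEF4 culture itself. Each line is a single culture history, so the 3 libraries of CF4, described in the series as biological replicates, sample 1 immortal line and do not stand for independent immortalization events. The notes on the set that holds CF4 also describe an oleic acid and soy lecithin medium for adherent and suspension cells, and do not say whether CF4 received it. Set beside them are CF2 and CEF2 (the attached immortal line and primary cells labelled Broiler Ross 308), and SCF4, the suspension line that carries the number 4, whose label fields give conflicting breeds.

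Embryonic fibroblasts are mesenchymal cells that make and remodel the extracellular matrix, chiefly fibrillar collagens and fibronectin. Lysyl oxidases crosslink the collagens outside the cell. Primary fibroblasts divide for a limited number of times and then stop, a state held in part by cyclin-dependent kinase inhibitors such as p21 (CDKN1A). Cells that go on dividing have escaped that arrest, and in mammals often re-express telomerase. A primary culture from an embryo is also a mixture that can hold chondrocytes, myoblasts, pigment cells and vascular cells beside fibroblasts.

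The deposited values were reads divided by 1 factor per library. They are called normalized reads here, are not divided by gene length and are compared only within a gene. CF4 libraries held 21818260 to 27540405 recovered reads and CEF4 libraries 21189577 to 25355203, so a single read stood for 0.294 to 0.369 normalized reads in CF4 and 0.449 to 0.563 in CEF4. The CF4 libraries were close to each other, with a correlation of log2 values of 0.997 for each pair, against 0.980 to 0.990 between CEF4 libraries. CEF4 replicate 1 stood apart with 17.2% of genes at 0, where the lowest CEF4 library had 10.9%. Without it 9149 genes were called, 3961 higher and 5188 lower, and no list count given below moved by over 1.5 times apart from collagen chains higher, which became 1. CEF4 was deposited in a first set with CEF2 and SCF4, CF4 in a second with CF2, and no group is in both. Deposited set and group therefore cannot be told apart in CF4 against CEF4. SCF4 libraries come from the set of CEF4, and their levels are given beside the main results for that reason. P-values come from limma on log2(normalized reads + 1) over 18 libraries of 6 groups, with Benjamini-Hochberg adjustment across the tested genes and a call at an adjusted p under 0.05. Fold bounds and intervals cover counting error only.

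Most genes differed between the immortal line and the primary cells. The list counts below are to be read beside the shares over all genes. Of 13123 genes tested, 9213 (70.2%) were called, 4090 higher (31.2%) and 5123 lower (39.0%) in CF4. Quantile normalization turned that split round, with 5326 (40.6%) higher and 3949 (30.1%) lower, and it moved the median log2 change of all genes by 0.26, to 0.16, against -0.11 as deposited. For lists and genes whose direction turned with that scaling, both values are given. Large ones were mostly falls: 1160 genes fell and 319 rose by at least 3 on the log2 scale, and 166 fell and 11 rose by at least 8. Across the tested genes, as a description only, the mean log2 levels of CF4 correlated at 0.982 with SCF4, 0.974 with CF2, 0.827 with CEF4 and 0.817 with CEF2. CF2 shares its deposited set with CF4, and SCF4 does not. Reads were also less concentrated in CF4, where the 10 genes with most reads took 5.43% to 5.76% of them, against 13.2% to 16.5% in CEF4.

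**Figure D1:**
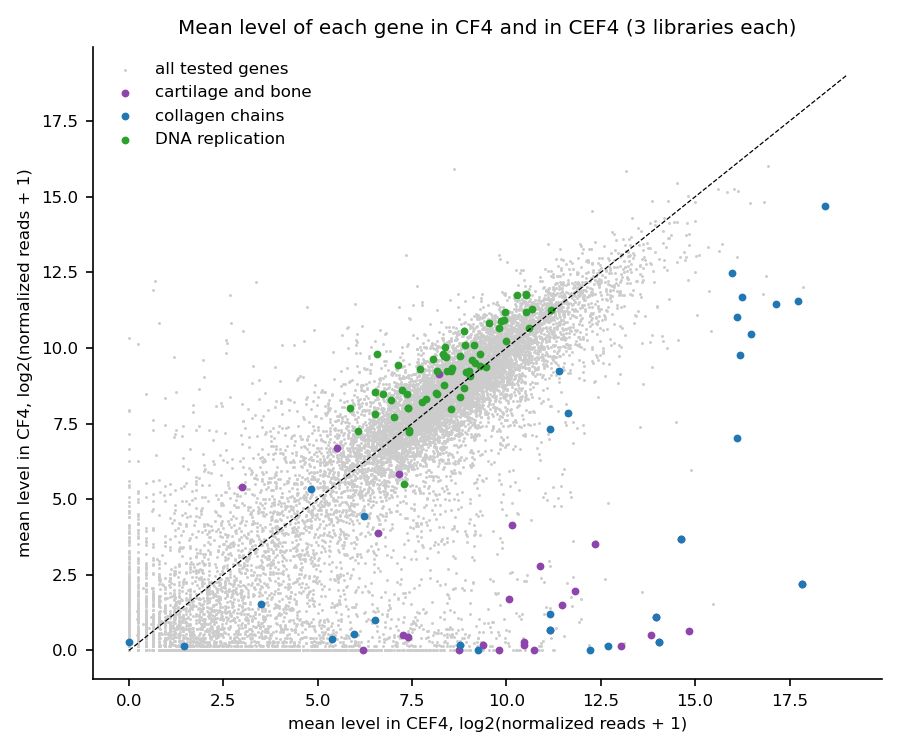
Mean level of each tested gene in CF4 (vertical axis) against CEF4 (horizontal axis), both as log2(normalized reads + 1) over 3 libraries, with equal levels on the dashed line. Collagen chains (blue) and cartilage and bone genes (purple) lie mostly far below the line, and most DNA replication genes (green) lie above it.

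The largest falls were of cartilage matrix genes, the fibril crosslinking enzyme LOX and a lactate transporter. COL2A1, the chain of type II collagen that makes up cartilage fibrils, had 3.22, 4.06 and 3.53 normalized reads in CF4, against 178265, 230487 and 287290.3 in CEF4. The CF4 libraries were all near 0 and lay far below every CEF4 library (log2 change -15.60, SE 0.28, adjusted p 2.9e-18). ACAN, the aggrecan core protein of cartilage, had 0.322, 0.738 and 0.589 normalized reads in CF4, against 26296, 31986 and 29853 in CEF4 (log2 change -14.22, SE 0.22, adjusted p 6.4e-19). SOX9, the master transcription factor of chondrocytes, had no read in any CF4 library and 1882, 1877 and 1304 normalized reads in CEF4, at least 5184-fold lower in CF4 with 3 reads over the group as the floor. The link protein gene HAPLN1 had 1 read in CF4 in all, 77535-fold lower (95% counting interval 13916 to 3062463), and COL9A1, a chain of type IX collagen, had 2, 77614-fold lower (95% counting interval 21486 to 640880.1). LECT1, which encodes the cartilage protein chondromodulin, and COL9A3 also stayed under 3 normalized reads in every CF4 library, with log2 changes of -13.37 and -12.98. In SCF4, COL2A1 had 3.78, 10.9 and 12.4 normalized reads and ACAN 0, 0 and 0.428, so both were near 0 as well in an immortal line deposited in the same set as CEF4.

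Other genes among the 12 largest falls act in matrix, clotting and transport. F13A1, the transglutaminase subunit of clotting factor XIII, had 0.965, 1.48 and 3.24 normalized reads in CF4, against 47557, 46834 and 41589.7 in CEF4 (log2 change -14.01, SE 0.21, adjusted p 6.4e-19). LOX, the lysyl oxidase that crosslinks collagen and elastin, had 2 reads over the 3 CF4 libraries and 9024, 9096 and 8263 normalized reads in CEF4, 40522-fold lower (95% counting interval 11218 to 334607). COL15A1, a basement membrane collagen, had no read in CF4 and 4707 ± 417 normalized reads in CEF4 (SD, n = 3), at least 14459-fold lower. COL8A2, a network-forming collagen, SLC16A1, the monocarboxylate transporter that carries lactate, and EXFABP, a chicken lipocalin, each had 1 read over the 3 CF4 libraries. Their CEF4 means were 6614 ± 954, 6279.5 ± 834 and 4627 ± 1226 normalized reads (SD, n = 3).

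As a group, 25 of 28 tested cartilage and bone genes fell and 3 rose, with a median log2 change of -9.50, or -9.91 with genes that had no read set to their bound. The list took 0.0102% to 0.0105% of the reads in CF4 libraries and 2.68% to 3.54% in CEF4 libraries. CHAD, the leucine-rich cartilage protein chondroadherin, COMP, a cartilage oligomeric matrix protein, and SPP1, the bone matrix protein osteopontin, fell, with log2 changes of -9.98, -8.83 and -9.84. RUNX2 and ALPL, genes of bone formation, went the other way: RUNX2 had 108, 96.0 and 105 normalized reads in CF4, against 67.8, 39.8 and 26.5 in CEF4 (log2 change 1.29, SE 0.31, adjusted p 0.0011), and ALPL rose by 0.94 (adjusted p 6.8e-06). All 11 tested cartilage markers fell, and SOX9, MATN3 and C9H2ORF82 were the 3 with no read in CF4. The marker list took between 2.40% and 3.24% of CEF4 reads and at most 2.56e-04% of CF4 reads. In bulk RNA, fewer cells of a type and less RNA per cell cannot be told apart, and what share of the fall in matrix genes came from chondrocytes in the primary culture was not tested.

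The fibroblast matrix fell too. Of 30 tested collagen chains, 28 fell and none rose, with a median log2 change of -5.62, and after quantile normalization 26 fell and 1 rose. Collagen reads made up 0.567% to 0.591% of all reads in CF4, against 10.8% to 14.4% in CEF4. COL1A1, a chain of the main fibrillar collagen of fibroblasts, had 27509, 27106 and 24695 normalized reads in CF4, against 247173, 337204 and 487504 in CEF4 (log2 change -3.70, SE 0.20, adjusted p 8.6e-12). COL1A2, its partner chain, fell further, with 2974, 3077 and 2926 in CF4, against 175129.6, 206412 and 271751 in CEF4 (log2 change -6.16, SE 0.19, adjusted p 2.3e-15). The chains of type VI collagen with the smallest p, COL6A1 and COL6A2, were 85.3-fold and 23.6-fold lower in CF4, and COL12A1, a fibril-associated collagen, 555-fold. COL3A1 had 2856, 2901 and 2688 normalized reads in CF4, against 129817, 141323 and 165305 in CEF4 (log2 change -5.68, SE 0.10, adjusted p 2.9e-18). The basement membrane chains COL4A1 and COL4A2 had 0 and 1 reads over the CF4 libraries, where CEF4 averaged 607 ± 20.2 and 433 ± 30.5 normalized reads (SD, n = 3).

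Enzymes that modify and crosslink collagen moved with it, as 24 of 26 tested members fell and 2 rose (median log2 change -2.77). PLOD2, a lysyl hydroxylase, had 1182, 1221 and 1207 normalized reads in CF4, against 19109.7, 17473 and 17417 in CEF4 (log2 change -3.90, SE 0.07, adjusted p 3e-18). The lysyl oxidase relatives LOXL3 and LOXL2 were 4382-fold and 22.5-fold lower, and the prolyl hydroxylase subunit P4HA1 6.44-fold. Matrix glycoproteins showed 34 falls and 5 rises among 42 tested (median log2 change -2.90). FN1, fibronectin, had 3898, 3491 and 5044 normalized reads in CF4, against 235848, 269167 and 209136 in CEF4 (log2 change -5.85, SE 0.15, adjusted p 1.7e-16). SPARC, a collagen-binding secreted protein, and THBS2, a thrombospondin, were 32.6-fold and 28.3-fold lower, and TGFBI, a matrix adhesion protein, 493-fold. FBLN1, the elastic fibre protein fibulin, had no read in CF4 and 1934, 2000.5 and 2015 normalized reads in CEF4, at least 6092-fold lower.

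Among small leucine-rich proteoglycans, which coat collagen fibrils, 12 of 14 tested fell and 1 rose. DCN, decorin, was 3797 ± 77.6 in CF4 and 42424 ± 7794 in CEF4, and LUM, lumican, was 1238 ± 36.5 in CF4 and 24023 ± 5966 in CEF4 (normalized reads, SD, n = 3). PODN, podocan, was the exception, with 1504, 1415 and 1667 normalized reads in CF4, against 22.5, 37.1 and 26.5 in CEF4, a 53.3-fold rise (log2 change 5.71, SE 0.15, adjusted p 2.4e-16). Matrix proteases and their inhibitors were split, with 18 falls (56.25%) and 11 rises (34.4%) among 32 tested, beside 39.0% and 31.2% of all genes. MMP2, the gelatinase that degrades denatured and basement membrane collagen, rose to 23449.9, 22334 and 24514 normalized reads in CF4, against 5301, 4953 and 4415 in CEF4 (log2 change 2.26, SE 0.10, adjusted p 3e-13). The inhibitors SERPINE2 and TIMP3 were 124-fold and 23.9-fold lower in CF4, the collagenase MMP13 607-fold lower, and ADAMTS1, a protease of proteoglycans, had no read in CF4.

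**Figure D2:**
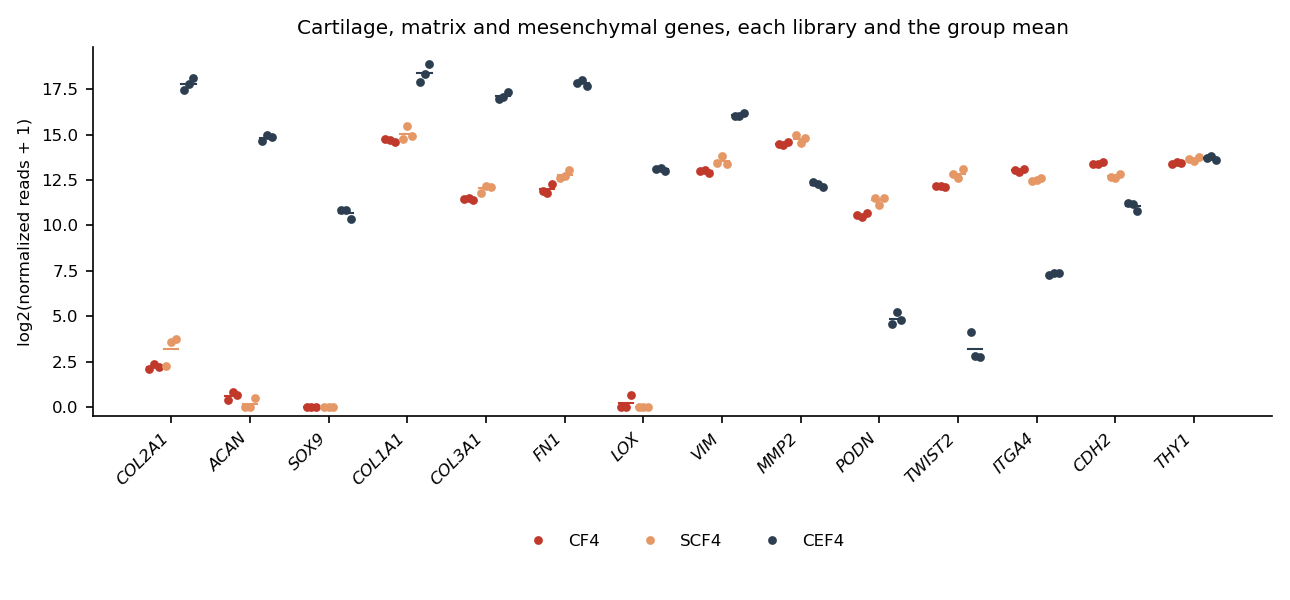
Level of 14 cartilage, matrix and mesenchymal genes in each library of CF4, SCF4 and CEF4, as log2(normalized reads + 1), with the group mean as a bar. The cartilage genes and LOX lie near 0 in CF4 and SCF4, the fibroblast matrix genes lie between, and MMP2, PODN, TWIST2, ITGA4 and CDH2 lie higher in CF4 than in CEF4.

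The label of CF4 as fibroblasts was checked against 19 markers, all of which were tested. Of these, 13 fell and 4 rose in CF4, and none was without a read in either group. The markers took 1.04% to 1.07% of CF4 reads, against 11.02% to 13.10% of CEF4 reads. VIM, the intermediate filament of mesenchymal cells, was still at 8206, 8653 and 7736 normalized reads in CF4, against 66402, 67716 and 76178 in CEF4 (log2 change -3.09, SE 0.10, adjusted p 3.7e-15). THY1, a surface marker of fibroblasts, had 10939, 11655 and 11178 normalized reads in CF4, against 13311, 14631 and 12522 in CEF4, a fall of 0.26 on the log2 scale (adjusted p 0.038) that became a rise of 0.65 after quantile normalization and was not called by edgeR. PDGFRB, a receptor of the platelet-derived growth factor family, was 1062 ± 61.4 in CF4 and 998 ± 60.3 in CEF4 (normalized reads, SD, n = 3), with an adjusted p of 0.54. PDGFRA was low in both groups, at 10.6, 5.17 and 10.0 normalized reads in CF4 and 4.49, 17.2 and 23.1 in CEF4 (adjusted p 0.23), and was called higher after quantile normalization (0.95, adjusted p 0.035).

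Transcription factors of mesenchyme changed in both directions, with 17 of 35 tested higher and 14 lower. TWIST2, a basic helix-loop-helix factor of dermal and other mesenchyme and among the 12 largest rises, had 4612, 4687 and 4472 normalized reads in CF4, against 16.2, 6.09 and 5.63 in CEF4, 494-fold higher (log2 change 8.95, SE 0.24, adjusted p 4.3e-16). SCF4 libraries held 7276, 6333 and 8742 normalized reads of TWIST2, so the gene was high in the number 4 immortal cells of both deposited sets. OSR2, a zinc finger factor of limb and palate mesenchyme, rose 28.0-fold (adjusted p 4.6e-16), PRRX1, a homeobox factor of limb mesenchyme, 2.02-fold, and TWIST1 1.54-fold. SNAI2, a repressor of epithelial genes, fell to 21.9, 21.8 and 22.1 normalized reads in CF4, against 1657, 1305 and 860.3 in CEF4 (log2 change -5.75, SE 0.29, adjusted p 2.6e-12). HIC1, a growth-restraining zinc finger repressor, and MEOX2, a homeobox gene, were 119.7-fold and 295-fold lower.

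Contractile genes fell as a group, with 29 falls and 7 rises among 40 tested (median log2 change -1.09). ACTA2, the smooth muscle actin of myofibroblasts, had 1251, 1494 and 1273 normalized reads in CF4, against 18985, 17941 and 16848 in CEF4 (log2 change -3.74, SE 0.10, adjusted p 4.7e-16). CALD1, caldesmon, was 470.2-fold lower in CF4, TAGLN, the actin-binding protein transgelin, 71.7-fold, and the tropomyosin TPM1 15.6-fold. Integrin genes changed in both directions. Of 35 integrin and focal adhesion genes, 13 rose and 18 fell as deposited, and 17 rose and 13 fell after quantile normalization. ITGA4, an integrin subunit that binds fibronectin and VCAM1, rose to 8636, 8055 and 8857 normalized reads in CF4, against 153, 169 and 165 in CEF4, 52.5-fold (log2 change 5.71, SE 0.10, adjusted p 1.3e-18). ITGA9 rose 32.6-fold and ITGA6, a laminin receptor subunit, 4.62-fold, while ITGB4, the hemidesmosome subunit that pairs with ITGA6, had 0, 1.85 and 0.294 normalized reads in CF4, against 694, 806 and 764 in CEF4. ITGB1, the common beta subunit, fell by 0.66 as deposited and rose by 0.39 after quantile normalization. The focal adhesion genes ZYX and FERMT1 fell by 1.89 and 5.78 on the log2 scale.

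Cadherins and other adhesion genes showed 24 falls and 6 rises among 41 tested. CDH2, N-cadherin, rose to 10822, 10878 and 11545 normalized reads in CF4, against 2434, 2309.7 and 1801 in CEF4 (log2 change 2.36, SE 0.10, adjusted p 3.8e-13), and CDH11, the cadherin of osteoblasts and mesenchyme, fell to 96.8, 101 and 109.8 in CF4, against 2191, 1750.4 and 1448 in CEF4 (log2 change -4.10, SE 0.23, adjusted p 1.6e-11). CDH3 and CDH7, further cadherins, and NECTIN1, an immunoglobulin-like adhesion protein, had no read in CF4. They were at least 1565-fold, 649-fold and 505-fold lower there than in CEF4. ALCAM, an adhesion molecule also found on leukocytes, had 2 reads in CF4 and 1049.6 ± 134 normalized reads in CEF4 (SD, n = 3). CDH1, E-cadherin, fell within low levels, at 1.61, 1.48 and 0.294 normalized reads in CF4, against 11.7, 8.85 and 11.3 in CEF4, a fall that was not called after quantile normalization (adjusted p 0.057).

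Genes of the cell cycle rose, and a wider list of cell cycle inhibitors and damage response genes split. Of 59 tested DNA replication genes, 48 rose and 3 fell, with a median log2 change of 0.82. For mitosis and spindle genes the count was 45 higher and 8 lower of 64, with a median of 0.69. TYMS, the thymidylate synthase that supplies dTMP, had 877, 919.8 and 862 normalized reads in CF4, against 112, 84.6 and 83.9 in CEF4, 9.48-fold higher (log2 change 3.24, SE 0.13, adjusted p 6.9e-14). The cytokinesis motor KIF23 rose 3.43-fold, the spindle factor TPX2 2.76-fold, the checkpoint kinase BUB1B 2.64-fold and the kinetochore scaffold KNL1 3.11-fold. MKI67, the proliferation marker Ki-67, had 2348, 2383 and 2691 normalized reads in CF4, against 1452, 1376 and 1038 in CEF4, a smaller change (log2 change 0.95, SE 0.14, adjusted p 5.8e-06). UHRF1, which maintains DNA methylation at replication, ORC4, a subunit of the origin complex, and the clamp loader subunit RFC3 were 2.75-fold, 3.05-fold and 2.84-fold higher.

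CDKN1A, which encodes the inhibitor p21, was nearly absent from CF4, at 3.86, 7.01 and 9.42 normalized reads, against 1902, 1963 and 2832 in CEF4, 330.1-fold lower (log2 change -8.21, SE 0.26, adjusted p 3.1e-15). SCF4 libraries held 36.1, 32.6 and 24.4 normalized reads of it, low as well. Other growth control genes fell too: MDM2, a ubiquitin ligase, had 275, 296 and 288 in CF4, against 1739.6, 2005 and 2038 in CEF4 (log2 change -2.74, SE 0.12, adjusted p 4.8e-13), and CCNG1 and BTG2 were 6.41-fold and 6.20-fold lower. CDKN1B, the inhibitor p27, had 176, 180.1 and 151 normalized reads in CF4, against 1037, 922 and 944 in CEF4 (log2 change -2.51, SE 0.10, adjusted p 7e-14). The neighbouring genes CDKN2A and CDKN2B went opposite ways. CDKN2A, which in chicken is known to encode ARF and no functional p16, had 2717, 2699.7 and 2503 in CF4, against 1665, 1411 and 2074 in CEF4 (log2 change 0.64, SE 0.16, adjusted p 0.0013), and CDKN2B, the kinase inhibitor p15, had 238, 211 and 191 in CF4, against 437, 389 and 607 in CEF4 (log2 change -1.14, SE 0.17, adjusted p 8.9e-06). RB1, the retinoblastoma protein gene, was 1067 ± 36.3 in CF4 and 1081 ± 90.5 in CEF4 (normalized reads, SD, n = 3), with overlapping libraries and an adjusted p of 0.89. CCND1, cyclin D1, and CHEK1, a replication checkpoint kinase, rose 3.12-fold and 4.73-fold. Over the list of cell cycle inhibitors and damage response genes, 19 of 45 rose (42.2%) and 19 fell (42.2%). Of all genes tested, 31.2% rose and 39.0% fell.

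TERT, the catalytic subunit of telomerase, was at the edge of detection in both groups. It had 8 reads over the 3 CF4 libraries, at 0.322, 1.48 and 0.883 normalized reads, and 2 over the CEF4 libraries, at 0, 0.553 and 0.563. The adjusted p was 0.36 as deposited and 0.036 after quantile normalization, with counts too low at this depth to settle a difference. Of 19 telomere genes tested, 12 rose and 1 fell. The helicases BLM and RTEL1 were 5.08-fold and 5.06-fold higher in CF4, and the telomere proteins STN1 and TERF2 1.94-fold and 1.56-fold. MYC, a driver of growth and proliferation, was slightly lower in CF4, at 849, 814 and 819 normalized reads, against 1105, 994 and 866 in CEF4 (log2 change -0.25, SE 0.08, adjusted p 0.013), and was not called after quantile normalization (adjusted p 0.055).

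**Figure D3:**
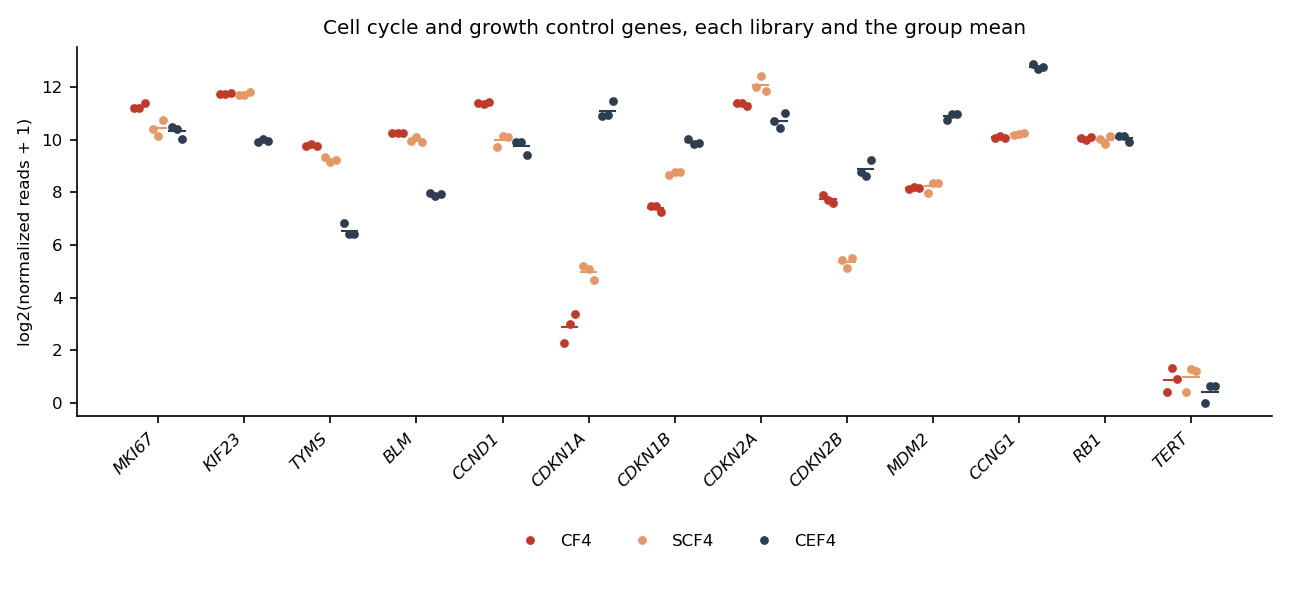
Level of 13 cell cycle, growth control and telomerase genes in each library of CF4, SCF4 and CEF4, as log2(normalized reads + 1), with the group mean as a bar. MKI67, KIF23, TYMS, BLM and CCND1 are higher in CF4 than in CEF4, CDKN1A, CDKN1B, MDM2 and CCNG1 are lower, and TERT is near 0 in all 3 groups.

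Over the 55 tested Wnt genes, 16 rose (29.1%) and 25 fell (45.5%) as deposited, beside 31.2% and 39.0% of all genes tested. After quantile normalization 20 rose and 17 fell. In this pathway secreted ligands bind Frizzled receptors, and cells that receive the signal switch on feedback genes such as AXIN2. AXIN2 had 1183, 1195 and 1109 normalized reads in CF4, against 43.1, 87.4 and 62.5 in CEF4, 18.1-fold higher (log2 change 4.21, SE 0.19, adjusted p 5.4e-13). The feedback inhibitors NKD1 and ZNRF3 rose 8.75-fold and 3.62-fold, and the membrane inhibitor APCDD1, among the 12 largest rises, had 1747, 1796 and 1924 in CF4, against 7.64, 6.64 and 2.25 in CEF4. The nuclear factors LEF1 and TCF7 rose 3.30-fold and 20.4-fold. RNF43, a relative of ZNRF3, fell at low levels, with 4.18, 4.43 and 3.24 normalized reads in CF4, against 13.9, 23.8 and 9.58 in CEF4 (adjusted p 0.00069, and 0.91 after quantile normalization). SFRP1, a secreted inhibitor of Wnt ligands, had no read in CF4 and 1864, 1764 and 1937 normalized reads in CEF4, at least 5699-fold lower, and FRZB, a related protein, had 1 read in CF4, 17620.2-fold lower (95% counting interval 3162 to 695961). Among receptors, FZD2 rose 24.3-fold and FZD9 was 46.9-fold lower in CF4. The Wnt genes named here other than APCDD1, FRZB, FZD9 and SFRP1 were picked after their values were seen. Whether the activity of the pathway differed between CF4 and CEF4 was not tested.

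TGF-beta and BMP genes fell more often than they rose, with 31 falls and 9 rises among 49 tested. TGFB2, a ligand, had 0.322, 0 and 0.883 normalized reads in CF4, against 3243, 3017 and 2527 in CEF4 (log2 change -11.07, SE 0.40, adjusted p 2.1e-14), and the ligand TGFB3 was 5.87-fold lower. BAMBI, a decoy receptor of the pathway, was 24.7-fold lower, ACVRL1, a type I receptor known from endothelium, 1227-fold, and FST, the activin-binding follistatin, had no read in CF4. In the insulin-like growth factor axis 12 of 21 fell and 5 rose. STC2 and PAPPA2, a secreted glycoprotein and a protease of IGF-binding proteins, were 18.5-fold and 844-fold lower, IGFBP2 7.16-fold lower, and IGF2BP1, an oncofetal RNA-binding protein, 4.97-fold higher.

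Other growth factor genes were mixed, with 23 of 68 higher (33.8%) and 30 lower (44.1%) as deposited. These shares were near the 31.2% and 39.0% of all genes tested. After quantile normalization 27 were higher and 26 lower. FLT1, the receptor for VEGF-A and placental growth factor, had 2592, 2608 and 2668 normalized reads in CF4, against 22.5, 34.9 and 19.2 in CEF4, 103-fold higher (log2 change 6.67, SE 0.14, adjusted p 2.1e-17). PDGFD, a ligand of the PDGF receptors, had 8652, 8481 and 8716 in CF4, against 886, 930.0 and 862 in CEF4, 9.65-fold higher (log2 change 3.27, SE 0.07, adjusted p 4.4e-17). EPHA3 and FGFR3, receptor tyrosine kinases, had 1 and 2 reads over the CF4 libraries, against means of 593 ± 20.8 and 1939 ± 274 normalized reads in CEF4 (SD, n = 3). FGFR3 is a gene of growth plate cartilage.

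Genes of position along the body and limb changed in both directions. HOX genes give cells their place along the body axis, and 19 of 34 tested fell and 8 rose. HOXB4, HOXB2 and HOXC10 rose 50.8-fold, 22.1-fold and 11.4-fold, the first to 1195, 1198 and 1209 normalized reads in CF4, against 24.7, 27.1 and 19.2 in CEF4 (log2 change 5.62, SE 0.15, adjusted p 2.5e-16). HOXB7, from the same cluster, had no read in CF4 and 22.5, 24.9 and 22.5 normalized reads in CEF4. Of 62 limb and positional transcription factors, 19 rose (30.6%) and 31 fell. The share of rises was near the 31.2% of all genes tested, and the share of falls was above the 39.0%. IRX1, an Iroquois homeobox factor, had 1106, 1138 and 1104 normalized reads in CF4 and 1 read in CEF4, 6484-fold higher (95% counting interval 1164 to 256122). PITX1 and TBX4, which give the hindlimb its identity, had 1 read each over the CF4 libraries, against 349, 338 and 240.0 and 36.4, 30.4 and 24.8 normalized reads in CEF4. SIX2, a homeobox gene of kidney progenitors, had no read in CF4 and a mean of 1296 ± 149 normalized reads in CEF4 (SD, n = 3).

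The remaining largest rises came from genes of many kinds. KRTAP10-4, named as a keratin-associated protein, had 4749.9, 4581 and 4818 normalized reads in CF4, against 1.80, 0 and 0 in CEF4 (log2 change 11.71, SE 0.33, adjusted p 9.2e-16). CBLN2, a secreted organizer of synapses, had 3864, 3742 and 3970.1 in CF4 and 3 reads in CEF4, 7472-fold higher (95% counting interval 2557 to 36231). VIP, the vasoactive intestinal peptide, had 1302, 1276 and 1305 in CF4 and no read in CEF4, at least 2507-fold higher with the same floor. In SCF4 these 3 genes had 1659.6 ± 316, 3866 ± 159.9 and 461 ± 82.7 normalized reads (SD, n = 3), well above CEF4. KRTAP10-4, CBLN2 and VIP rose in line 2 as well, with log2 changes of 10.22, 9.57 and 6.94 in CF2 against CEF2. COLEC10, a soluble lectin, SKAP1, an adaptor of T cell adhesion, and RASSF9, a Ras-association domain protein, were 637-fold, 643-fold and 249-fold higher. AFAP1L2, an actin-associated adaptor, had 339, 336 and 379 normalized reads in CF4 and 2 reads in CEF4. SEC14L5, a SEC14-like protein, and CHIR-IG1-5, a chicken immunoglobulin-like receptor, had no read in CEF4 and were at least 476-fold and 461-fold higher in CF4. In line 2, AFAP1L2, CHIR-IG1-5, SEC14L5 and COLEC10 rose far less than in line 4, with log2 changes of 0.67, 2.08, 2.36 and 2.89. RASSF9 and SKAP1 rose there by 5.21 and 7.07. Values of genes from large families such as CHIR-IG1-5 and KRTAP10-4 are uncertain where reads can match several copies.

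Lipid genes moved in both directions. Among adipogenic and lipid droplet genes 24 of 42 fell and 7 rose. PPARG, the master regulator of fat cells, had 17.1, 15.1 and 14.1 normalized reads in CF4, against 453, 382 and 332 in CEF4 (log2 change -4.56, SE 0.16, adjusted p 2.1e-14), G0S2, an inhibitor of lipolysis, and ZNF423, a factor of preadipocytes, were 89.0-fold and 32.4-fold lower, and LPL, lipoprotein lipase, had no read in CF4. PPARGC1A, a coactivator of mitochondrial genes, had 32.8, 31.0 and 34.1 normalized reads in CF4 and no read in CEF4, at least 63.2-fold higher. Cholesterol synthesis genes were divided evenly, 10 higher and 10 lower of 25 (11 and 6 after quantile normalization). SQLE and DHCR7, late enzymes of the pathway, rose 2.68-fold and 2.50-fold, while HMGCS1, an early enzyme, and INSIG1, a sterol-regulated brake on the pathway, were 2.25-fold and 6.41-fold lower. Of 20 fatty acid synthesis genes 9 rose and 6 fell: ELOVL6, an elongase, was 2.19-fold higher, and ME1, SCD and ACLY were 69.9-fold, 2.49-fold and 2.13-fold lower in CF4.

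Glycolysis and lactate genes fell in 20 of 27 cases and rose in 3 (12 and 9 after quantile normalization). SLC16A1, described above, led them, with 5960.4, 5652 and 7226 normalized reads in CEF4 and 1 read in CF4. HIF1A, the factor that drives glycolytic genes in low oxygen, and PFKL, a phosphofructokinase, were 6.20-fold and 6.55-fold lower, and PDK4, which closes pyruvate entry into mitochondria, had no read in CF4 and a mean of 25.3 ± 6.46 in CEF4 (normalized reads, SD, n = 3). Of 61 nuclear respiratory chain genes, 19 rose (31.1%) and 13 fell (21.3%), beside 31.2% and 39.0% of all genes tested. NDUFS8, NDUFA10 and SDHB, subunits of complexes I and II, changed by 0.94, 0.58 and -0.56 on the log2 scale, and NDUFB4 by -1.56.

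Of 29 tested genes of the unfolded protein response, 26 fell and none rose (21 and 2 after quantile normalization), with a median log2 change of -1.12. HSPA5, the main chaperone of the endoplasmic reticulum, had 8439, 8122 and 8789 normalized reads in CF4, against 31437, 35089 and 32654 in CEF4 (log2 change -1.97, SE 0.06, adjusted p 4.2e-15). P4HB, a disulfide isomerase that is also a subunit of collagen prolyl hydroxylase, was 5.37-fold lower, the cochaperone DNAJB9 4.21-fold and the coat protein SEC24D 5.29-fold. SCF4 held more HSPA5 than CF4, at 21487, 21782 and 22511 normalized reads. Amino acid stress genes, many of them targets of ATF4, fell in 24 of 32 cases and rose in 1. CHAC1, a glutathione-degrading enzyme, had 149, 142 and 146 normalized reads in CF4, against 3846, 4213 and 4761 in CEF4 (log2 change -4.86, SE 0.12, adjusted p 1e-16), and the glycyl-tRNA synthetase GARS and the proline enzyme ALDH18A1 were 5.45-fold and 4.87-fold lower. DDIT3, the stress factor CHOP, was 9.34-fold lower and ASNS, asparagine synthetase, 1.71-fold.

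Other protein and redox genes were split. Heat shock proteins showed 13 rises and 12 falls among 27: HSPH1, a cochaperone of HSP70, rose 3.16-fold, HSPA2 and HSPB7 were 3.52-fold and 69.1-fold lower, and HSPB8 had 1 read in CF4. Of 36 proteasome subunits, 16 rose and 9 fell, with PSMD3 and PSMC6 3.10-fold and 1.90-fold higher and PSMA1 2.06-fold lower. Ribosomal protein genes had 10 rises (15.9%) and 22 falls (34.9%) among 63 as deposited, beside 31.2% and 39.0% of all genes tested. After quantile normalization there were 23 rises and 11 falls, where 40.6% of all genes rose and 30.1% fell. The direction of the list thus turned with the scaling, as the split over all genes did. RPL22L1, a paralog of RPL22, was 8.58-fold lower in CF4 and RPS20 2.65-fold higher. Reads of such near-identical family members may have been divided between copies. In the antioxidant list 11 of 36 rose (30.6%) and 17 fell (47.2%), beside 31.2% and 39.0% of all genes tested. After quantile normalization 15 rose and 14 fell. TXNRD1, thioredoxin reductase, HMOX1, heme oxygenase, and NQO1, a quinone reductase, rose 6.24-fold, 3.42-fold and 3.28-fold, with HMOX1 and NQO1 picked after their values were seen. CAT, catalase, had 1 read in CF4 and 289, 279 and 273 normalized reads in CEF4, and the row named FTL, a ferritin light chain symbol, had no read in CF4 and 739, 594 and 454 normalized reads in CEF4.

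In the interferon list 22 of 44 fell and 9 rose. CXCL14, a chemokine, was 55.5-fold lower in CF4, IFNGR2, a receptor chain for interferon gamma, 5.73-fold, and IFIH1, the double-stranded RNA sensor MDA5, 11.3-fold, whereas SOCS1, a suppressor of cytokine signalling, was 22.0-fold higher (log2 change 4.41, SE 0.19, adjusted p 4.4e-13). Apoptosis regulators showed 11 rises (29.7%) and 17 falls (45.9%) among 37 as deposited, near the 31.2% and 39.0% of all genes tested. After quantile normalization there were 18 rises and 15 falls. BOK, a BCL2 family member, was 12.5-fold lower, and TNFRSF1B, a receptor of tumour necrosis factor, and CASP18 were 53.7-fold and 66.2-fold higher. Chromatin repressor and DNA methylation genes rose in 19 of 40 cases and fell in 7. HDAC1, a histone deacetylase, was 5.25-fold lower, CBX6 and MBD3 were 3.81-fold and 1.96-fold higher, and the maintenance methyltransferase DNMT1 was not called (adjusted p 0.47).

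In the list of immediate early and MYC family genes 20 of 36 fell and 9 rose, with KLF2 and ATF3 10.1-fold and 4.71-fold lower. NAV2, which the list holds although it belongs to neither class, was 11.5-fold higher. In the YAP and Hippo list 13 of 28 rose and 12 fell. YAP1, the coactivator itself, rose by 0.41 on the log2 scale (adjusted p 0.0039), while CYR61, a target gene, and AXL, a receptor kinase, were 6.04-fold and 2.70-fold lower, FAT4, an atypical cadherin, 179-fold lower, and the Hippo kinase STK4 3.24-fold higher. Of 24 listed genes of the female-specific W chromosome, 3 had a row, of which 1 was called higher and 2 were not called. SPIN1W rose to 397, 384 and 398 normalized reads in CF4, against 318, 232 and 194 in CEF4 (log2 change 0.69, SE 0.17, adjusted p 0.0018), a value that is uncertain where reads also match its Z-linked relative.

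**Figure D4:**
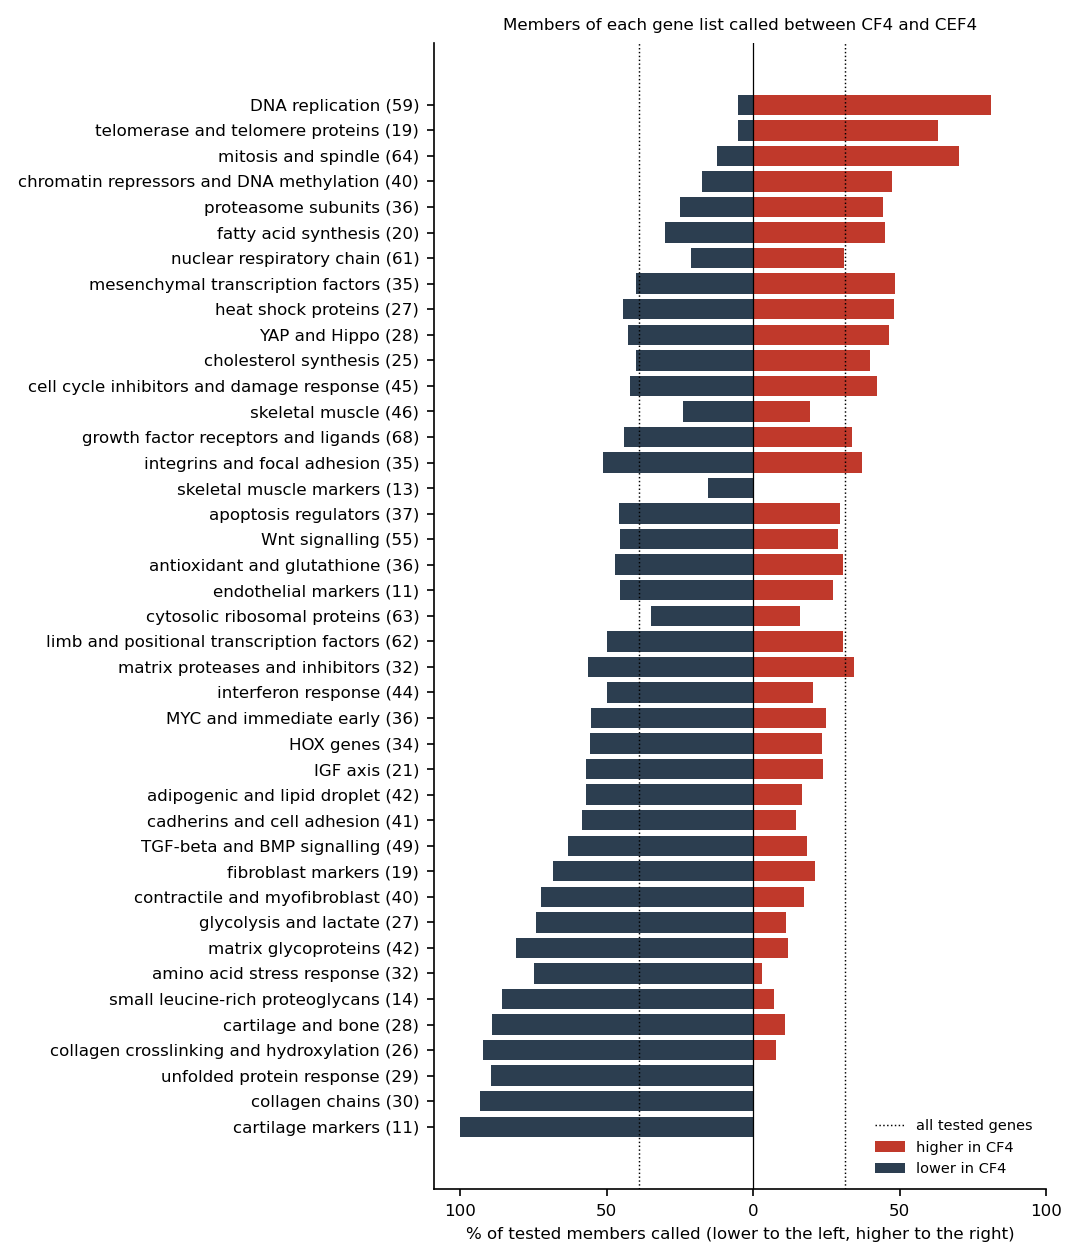
Share of tested members of each gene list called lower (left) and higher (right) in CF4, as a percentage of the tested members (their number in brackets), for lists with at least 10 tested members. Dotted lines mark 39.0% and 31.2%, the shares over all tested genes. DNA replication, telomere and mitosis genes lie at the top and cartilage, collagen and unfolded protein response genes at the bottom, and the order of the integrin, Wnt, growth factor, apoptosis, antioxidant, skeletal muscle and ribosomal lists turns round after quantile normalization.

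Markers of other cell types than cartilage were mixed. Of 13 tested skeletal muscle markers, 2 fell and 11 were not called: MYOD1, the master regulator of muscle, had 0, 0 and 0.294 normalized reads in CF4 and 0, 1.11 and 0.563 in CEF4, and ACTA1, skeletal actin, fell to 1.93, 0 and 0 in CF4, against 380.0, 351 and 304 in CEF4. MYOG, MYF5, MYF6, PAX7, TNNT3 and TNNI1 had no read in CF4, and MYOG, MYF5, MYF6, MYL1 and MYLPF none in CEF4. The wider skeletal muscle list had 9 rises and 11 falls among 46 as deposited and 15 and 8 after quantile normalization, with ACTC1, cardiac actin, at no read in CF4 and 522, 482 and 556 normalized reads in CEF4 and MYH1E, a myosin heavy chain, 14.2-fold higher in CF4. Endothelial markers gave 3 rises (27.3%) and 5 falls (45.5%) among 11, near the 31.2% and 39.0% of all genes tested. EGFL7 and CLDN5, both among the falls, were 74.2-fold and 17.97-fold lower. The share of reads of the whole list was higher in CF4, at 0.0218% to 0.0222%, against 0.0117% to 0.0162% in CEF4. On the normalized scale the sums of the endothelial list overlapped, at 1754 to 1796 in CF4 and 1424 to 1846 in CEF4. Of 8 macrophage and blood markers 4 rose and 3 fell: the scavenger receptor MARCO had 26.4, 19.6 and 24.1 normalized reads in CF4 and none in CEF4, LAPTM5 rose 5.23-fold, SPI1 had no read in CF4 and 1.80, 3.32 and 2.25 normalized reads in CEF4, and TLR4, HBA1 and HBAD had no read in either group. These markers took 0.0269% to 0.0276% of CF4 reads and 0.0121% to 0.0156% of CEF4 reads.

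Epithelial markers, 5 of them tested, gave 4 falls and no rise (2 falls by edgeR and 2 after quantile normalization), and their reads came to at most 3.61e-05% in CF4 and 0.00191% in CEF4. KRT14, a keratin, had 2 reads in CF4 and 62.9, 127 and 210.1 normalized reads in CEF4, and KRT18, KRT5 and CLDN1 had none in CF4. Neural markers gave 3 falls and 1 rise among 8 as deposited, and 2 falls and 3 rises after quantile normalization. TUBB3, a tubulin of neurons, rose to 457, 451 and 438 normalized reads in CF4, against 49.4, 46.5 and 54.6 in CEF4 (log2 change 3.14, SE 0.30, adjusted p 3.2e-08), while SCF4 had 1.72, 0.725 and 0. NEFM and SNAP25 had no read in CF4, and SOX10 was low in both groups. SOX2 fell, with log2 changes of -4.93 to -4.69 over the fits with 1 library left out. Among 6 adipocyte markers 3 fell and none rose, with FABP4 and LPL at no read in CF4. The part of these cell types in the results above was not tested.

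As a description with no test, 81 genes had no read in any CF4 library and a mean of at least 10 CPM of recovered reads in CEF4, of 7812 genes at that level in CEF4. Only 5 genes had the reverse pattern, of 8034 genes at that level in CF4: VIP, SEC14L5, CHIR-IG1-5, CSF2RA, a receptor chain for the cytokine GM-CSF, and HMX1, a homeobox gene. The median CEF4 level of the 81 genes was 267.7 normalized reads. HTRA3, a secreted serine protease, had 2859, 2297 and 2186 normalized reads in CEF4 and was at least 7518-fold lower in CF4, and ECM2, a matrix protein, at least 7349.5-fold. The 81 include COL15A1, FBLN1, SFRP1, SOX9, SIX2, MATN3, COL4A1, CDH3, CDH7, NECTIN1, FST, LPL, ADAMTS1, ACTC1, FTL and C9H2ORF82, already described. In SCF4, HTRA3, ECM2, FBLN1 and SOX9 likewise had no read in any library, and COL4A1 had 0, 0 and 0.856 normalized reads. The CF2 means of HTRA3, ECM2, FBLN1, SOX9 and COL4A1 were 0.105, 0.115, 0.105, 0 and 0.105 normalized reads.

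The change in line 4 was set against the change in line 2, CF2 against CEF2, which crosses the same 2 deposited sets and shares no library with it. In line 2, 9473 of 13123 genes were called (72.2%), 3880 higher (29.6%) and 5593 lower (42.6%). The size of the change differed between the lines for 6651 genes (50.7%), among them 3714 (28.3%) where line 4 changed more positively and 2937 (22.4%) where it changed more negatively. Leaving only the 4 groups of this contrast in the fit gave 7312, a pseudocount of 0.1 gave 6126, and edgeR called 5749 of 12078. Quantile normalization moved the median difference by -0.13, to -0.06, and gave 6510. The 3 W-linked genes with a row took 0.184% to 0.191% of reads in CF2 and 0.0325% to 0.0370% in CEF2. In CF4 they took 0.184% to 0.197%, and in CEF4 0.0844% to 0.133%. Their summed normalized reads overlapped in line 4, at 14936 to 15802 in CF4 and 9612 to 16116 in CEF4. In line 4, 1 of the 3 was called higher and 2 were not called. All 3 rose in line 2 and had a lower change in line 4. Whether the cells of a line and its primary culture differed in sex was not tested.

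Muscle and cartilage genes differed between the lines. Of 46 skeletal muscle genes, 11 fell and 9 rose in line 4, whereas 36 fell and 6 rose in line 2, and 40 had a higher change in line 4 and 1 a lower one. MYOD1 was 0.0981 ± 0.17 in CF4 and 0.557 ± 0.553 in CEF4, and 0.227 ± 0.394 in CF2 and 419 ± 61.1 in CEF2 (normalized reads, SD, n = 3 each). DES, desmin, was 0.638 ± 0.595 in CF4 and 1.12 ± 1.13 in CEF4, and 0.105 ± 0.183 in CF2 and 485 ± 61.7 in CEF2. All 13 tested skeletal muscle markers had a higher change in line 4, with a median difference of 7.19. The 6 largest differences each way were ranked only among genes whose CF4 and CEF4 libraries did not overlap. That limit can leave out genes near 0 in both. CHRNA1, the muscle subunit of the acetylcholine receptor, was among the 6 so ranked, at 6.76, 5.17 and 4.41 normalized reads in CF4 and 1.80, 1.11 and 0.563 in CEF4, and 2.53, 0.692 and 0.682 in CF2 and 175, 188 and 168 in CEF2 (difference in log2 change 7.97, SE 0.87, adjusted p 5.3e-07). Of the cartilage and bone genes, 20 of 28 had a lower change in line 4 and 3 a higher one, and all 11 cartilage markers fell in both lines and more so in line 4. The cartilage markers took 2.40% to 3.24% of reads in CEF4, against 0.0788% to 0.0844% in CEF2, and close to 0 in both immortal lines.

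Cartilage genes also made up most of the 6 largest differences downward in that ranking. MATN3, a cartilage matrix protein, had no read in CF4 and 883, 877 and 935 normalized reads in CEF4, and no read in CF2 and 2.09, 1.86 and 2.82 in CEF2 (difference -8.12, SE 0.30, adjusted p 5.7e-13). C9H2ORF82, CYTL1, a secreted protein known from cartilage, and EPYC, the cartilage proteoglycan epiphycan, differed by -7.10, -6.99 and -6.11. By edgeR the differences of MATN3 and EPYC were not called. COL8A1 and PITX1, the remaining genes of these 6, were expressed in each primary culture and kept by CF2 and not by CF4. COL8A1, a collagen of vessels and the eye, had 0, 1.48 and 2.35 normalized reads in CF4 and 2356, 2298 and 2186 in CEF4, and 2939, 2957 and 2936 in CF2 and 1812, 1936 and 1858 in CEF2 (difference -10.79, SE 0.39, adjusted p 3.6e-13). PITX1 had 0.322, 0 and 0 in CF4 and 349, 338 and 240.0 in CEF4, and 577, 576 and 573 in CF2 and 209.8, 227 and 200.2 in CEF2 (difference -9.56, SE 0.27, adjusted p 2e-14).

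Upward in the same ranking, EDNRB2 differed most. It encodes the avian endothelin receptor that guides melanoblasts, and had 144, 186 and 140.4 normalized reads in CF4 and 0, 0.553 and 1.13 in CEF4, and 9.17, 7.26 and 7.16 in CF2 and 216, 238 and 226 in CEF2. The log2 change was 6.71 in line 4 and -4.69 in line 2 (difference 11.40, SE 0.34, adjusted p 2.8e-14). SCF4 held 7.56, 9.42 and 11.1 normalized reads of it. GPNMB, a glycoprotein of pigment cells and macrophages, and PLXNC1, a semaphorin receptor, showed the same opposition, with log2 changes of 2.47 and 3.94 in line 4 and -5.99 and -5.01 in line 2 (differences 8.45 and 8.95). Of further pigment genes, looked up after these values were seen, MITF, the master factor of melanocytes, had 327, 348 and 359 in CF4 and 97.5, 94.0 and 86.2 in CEF4 (log2 change 1.89, SE 0.13, adjusted p 2.9e-10), while DCT, an enzyme of melanin synthesis, had no read in CF4 and 0, 4.43 and 7.32 normalized reads in CEF4. PCBP4, an RNA-binding protein, and RAI2 had no read in CF2 and rose modestly in CF4. PCBP4 had 270.3, 293 and 265 normalized reads in CF4, against 137, 151 and 138 in CEF4, and RAI2 139.6, 134 and 125 in CF4, against 106, 79.7 and 82.8 in CEF4 (differences 10.04 and 9.37).

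**Figure D5:**
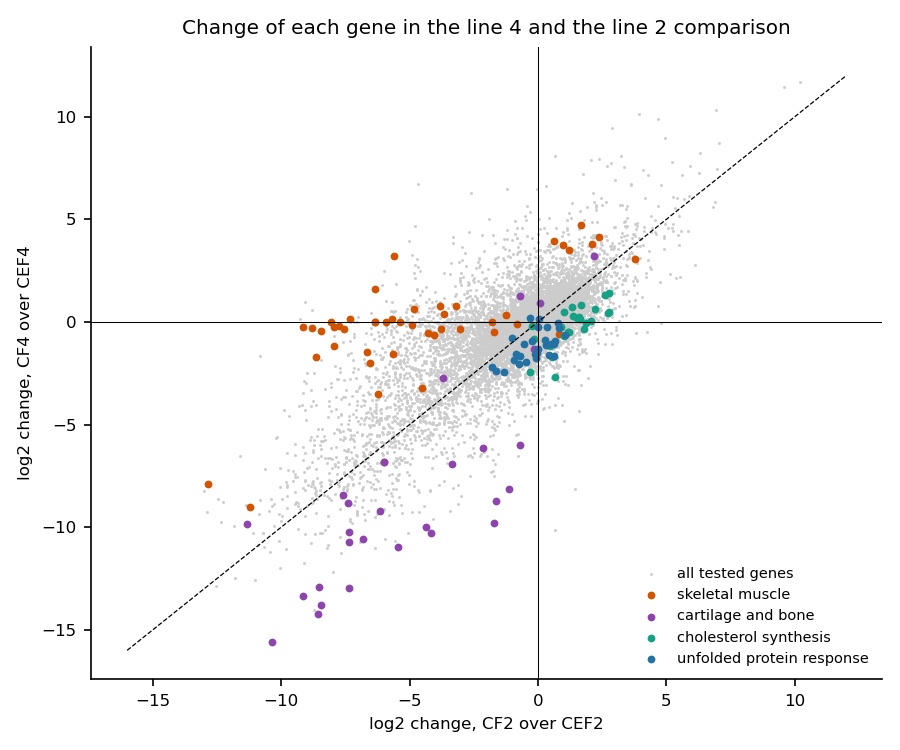
Log2 change of each tested gene in CF4 over CEF4 (vertical axis) against CF2 over CEF2 (horizontal axis), with equal changes on the dashed line. Most skeletal muscle genes (orange) lie to the left near a vertical value of 0, most cartilage and bone genes (purple) lie below the dashed line, and cholesterol synthesis (green) and unfolded protein response genes (blue) lie mostly below it.

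Housekeeping groups differed between the lines as well. Cholesterol synthesis genes rose in 22 of 25 cases in line 2 and fell in none, and 24 of the 25 had a lower change in line 4, with none higher. SQLE rose by 1.43 in line 4 and 2.77 in line 2 (difference -1.34, SE 0.14, adjusted p 3.4e-07). ACLY and SCD, lower in CF4 than in CEF4, were higher in CF2 than in CEF2, at log2 changes of 2.59 and 1.84 (adjusted p of the difference 2.5e-13 and 2.6e-13). Unfolded protein response genes had 10 rises and 11 falls among 29 in line 2, and 23 had a lower change in line 4 and 1 a higher one. Of 36 proteasome subunits 30 rose and 3 fell in line 2, and 26 had a lower change in line 4 and 2 a higher one. For the contractile list the difference ran the other way, with 24 of 40 having a higher change in line 4 and 4 a lower one. The list took 4.03% to 4.25% of reads in CEF2 and 1.61% to 1.67% in CEF4. In the immortal lines it took 0.861% to 0.876% in CF2 and 0.734% to 0.762% in CF4. Mitosis and spindle genes rose in 57 of 64 cases in line 2 and fell in 4, with a lower change in line 4 for 22 and a higher one for 7. CDKN1A, MDM2 and LOX fell in line 2 too, with log2 changes of -8.63, -2.45 and -12.52, and their changes were not called different between the lines (adjusted p 0.36, 0.17 and 0.3).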

How the data were processed

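RNA sequencing libraries of 18 chicken fibroblast cultures in 6 groups of 3 entered the fit. Per the labels' protocols, total RNA was extracted with a column kit, libraries were made with a whole-transcript kit and sequenced as paired-end reads. The submitters' processing notes list galGal6 as the build and the tools Bowtie2, RSEM and DESeq2, with neither version nor role. The table holds signal values, as deposited by the authors: each library's values were 100% whole multiples (tolerance 0.01) of 1 factor, so they are reads divided by a size factor, although the authors' table carries the name TPM. How the factors were set is not stated. Of 14161 gene lines, 17 whose symbols had been turned into dates were kept without a name. The deposited raw counts and comparison tables hold no CF4 library and were not used here.

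Values were analysed as log2(value + 1), keeping genes at 1 or more in at least 3 fitted libraries, which left 13123. limma 3.58.1 in R 4.3.3 was run with trended, robust variance over the 6 groups (CF4, CEF4, CF2, CEF2, SCF4 and SCF2), with calls at an adjusted p under 0.05. Fold changes on this scale understate the change of low genes, and folds in the text are ratios of group means of normalized reads. Where a group had reads, but no more than 3, its level was taken from the reads pooled over its libraries. Where it had none, the floor of 3 reads over the group was used. edgeR 4.0.16 on the recovered reads, which called 8917 of 12078 genes, and other scalings, pseudocounts, filters and left-out libraries were alternatives. Scripts were tested on simulated data first. The rest was done in Python 3.11.15 with pandas 2.3.3, numpy 2.4.6, matplotlib 3.10.9 and scipy 1.17.1.

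The comparison, the genes and the 46 gene lists were chosen with earlier results of these data known. Genes are named by a rule: the 12 largest changes in each direction and the 6 largest line differences each way (genes with a symbol, a mean of 10 CPM or more in the higher group and no overlap of CF4 and CEF4 libraries), up to 4 members of each list by smallest p, and 28 genes of interest. A few genes that the rule names are not reported here. Another 37 genes were named after their values were seen: ALPL, ASNS, AXIN2, CCND1, CHEK1, COL4A1, COL4A2, CSF2RA, DCN, DCT, DDIT3, DES, DNMT1, FZD2, HMOX1, HMX1, HTRA3, ITGA6, ITGB4, LEF1, LUM, MITF, MMP2, MYOD1, NKD1, NQO1, P4HA1, PDGFRB, PRRX1, RNF43, RUNX2, SNAI2, SPP1, TBX4, TCF7, TWIST1 and ZNRF3. In the cartilage markers, CNMD and SNORC were matched to LECT1 and C9H2ORF82, their older symbols in the table. Promoter motifs were planned and not run, since no promoter sequences were given. The 3 libraries of a group are described as biological replicates, and the labels do not say whether they were separate cultures. P-values therefore rest on the spread between libraries, pooled over the 6 groups of the fit. That spread was unequal, with correlations of 0.997 for each pair of CF4 libraries and 0.980 to 0.990 between CEF4 libraries. Replicate numbers do not pair CF4 with CEF4 libraries, and their fit as a block is among the alternatives.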

Additional observations from a re-analysis of the deposited data

Results flagged for a closer look

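The change in line 4 (CF4 against CEF4) differed from the change in line 2 (CF2 against CEF2) by limma's test of the difference for 6651 genes. The 12 named genes with the largest such differences, among genes whose CF4 and CEF4 libraries did not overlap, were picked for their size. EDNRB2 differed by 11.40 on the log2 scale, PCBP4 by 10.04, RAI2 by 9.37, PLXNC1 by 8.95, GPNMB by 8.45 and CHRNA1 by 7.97, all with the more positive change in line 4. COL8A1 differed by -10.79, PITX1 by -9.56, MATN3 by -8.12, C9H2ORF82 by -7.10, CYTL1 by -6.99 and EPYC by -6.11, all with the more negative change in line 4. By edgeR's quasi-likelihood test the differences of MATN3 and EPYC were not called. Their values in each library stand beside the comparison of the lines.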

How the results depend on the processing

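The count of 9213 genes called in CF4 against CEF4 lay between 8567 and 9275 over the other scalings, filters, pseudocounts and fits, and between 8579 and 9149 with 1 library left out (3794 to 4041 higher, 4760 to 5188 lower, and 6064 to 6782 for the line difference). A minimum log2 change of 1 left 5127 genes, 1983 higher and 3144 lower, and 3795 for the line difference. Quantile normalization moved the share of calls that were higher to 57.4%, against 44.4% as deposited. With the replicate number as a block, 9167 genes were called (4078 higher, 5089 lower) and 6547 for the line difference. Same-numbered CF4 and CEF4 libraries did not deviate together (correlations -0.0032, 0.00072 and -0.053), so the numbers were not taken as pairs. Among 260 single-gene results, 3823 of 3890 values under the alternatives kept direction and side of the threshold, 51 were no longer called, 2 became called and 14 changed sign. After quantile normalization the sign changed for DES (0.54), ITGB1 (0.39), PDGFRA (0.95), RB1 (0.018), RPLP0 (0.13) and THY1 (0.65), and RB1 was at 0.015 by edgeR and 0.025 with TMM scaling. With 1 library left out, DES ranged from -0.75 to 0.10, DNMT1 from -0.021 to 0.17 and RB1 from -0.086 to 0.029. Leaving out CEF4 replicate 1 made PDGFRA called. The cause of these changes was not tested. The 3 libraries per group and the unknown size factors limit small changes, and genes with few reads have no settled fold.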
